A study of Canis lupus familiaris with 40 samples.

Results

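Granulocytic myeloid-derived suppressor cells (PMN-MDSCs) of tumor-bearing dogs were compared with the neutrophils (C PMNs) of tumor-bearing dogs, gene by gene and library by library. Every library labelled PMN-MDSC or C PMN was taken, which gave 19 of the 40 libraries of the series, 9 of PMN-MDSCs and 10 of C PMNs. The design of the series counts 8 and 9, and which 2 libraries it does not count is not given. Neutrophils are short-lived granulocytes that take up microbes and release granule proteins, and mature ones are dense enough to pass through a density gradient. PMN-MDSCs are cells of the same lineage that expand in cancer and chronic inflammation, stay above the gradient with the mononuclear cells, and are known for suppressing T cells. The comparison therefore asks how the low-density cells differ in their transcripts from conventional neutrophils when the dogs of both groups carry a tumor.

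Both populations came from peripheral blood and were sorted as CD11b+ CADO48A+ cells that lacked CD5, CD21 and MHC class II, CADO48A being an antibody against a granulocyte antigen. PMN-MDSCs were taken from the mononuclear layer and were also CD14-negative, whereas C PMNs were taken from the dense pellet after lysis of red cells. The gates are thus nearly the same, and the groups differ in density, in the layer handled and in the CD14 gate. The labels give disease state (cancer in both) and do not give breed, age, tumor type or the dog behind each library. The study's text compares the 2 populations within a patient, and which libraries share a dog is not given. The tests here take libraries as independent, and p-values measure the spread between libraries. RNA was amplified with Smart-seq2, a low-input protocol, and the counts are of reads, not of molecules. The 9 PMN-MDSC libraries held 6299310 to 43296791 counts on genes (median 35478599) and the 10 C PMN libraries 4229857 to 53502663 (median 30768379.5). In each population 1 library lay under the limit of 10000000 counts, namely PMN-MDSC replicate 9 and C PMN replicate 7. The other 17 held at least 21597183 counts, and results are given with all 19 libraries and with these 17. Apart from depth, PMN-MDSC replicates 3 and 8 lay near C PMNs over the called genes, as given below. Both lay above all C PMNs for ENSCAFG00000008324, at 17.5 and 79.8 CPM against at most 13.8, a gene that these libraries helped to choose. Whether their labels are right cannot be told from the files, and they are part of every mean and count unless 1 of them is named as left out. The IDs in the files are Ensembl IDs that the files do not pair with gene names, and 0 of 24580 were matched to a symbol, so results are described over classes of genes and 4 IDs. In these bulk samples, fewer cells of a type and less RNA per cell cannot be told apart.

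With all 19 libraries, 1032 of 10278 genes tested (10.04%) were differentially expressed at a false discovery rate of at most 0.05 in edgeR's quasi-likelihood test. Of these, 871 were higher in PMN-MDSCs (8.47% of genes tested) and 161 were lower (1.57%). Without the 2 libraries of low depth, 2355 of 10436 genes were called (22.6%), 1504 higher (14.4%) and 851 lower (8.15%). The split between the directions thus moved from 84.4% higher to 63.9% higher. In both fits 954 genes were called with the same direction, which is 92.4% of the calls with 19 libraries and 40.5% of those with 17. No gene was called in opposite directions. The number of lower genes hung on single libraries more than that of higher genes. Of the 161 with 19 libraries, leaving out 1 PMN-MDSC library gave 77 (replicate 1), 66 (replicate 2), 470 (replicate 3), 64 (replicate 4), 62 (replicate 5), 59 (replicate 6), 142 (replicate 7), 345 (replicate 8) and 295 (replicate 9). Leaving out 1 C PMN library gave 105 (replicate 1), 86 (replicate 2), 93 (replicates 3 and 6), 113 (replicate 4), 107 (replicate 5), 485 (replicate 7), 108 (replicate 8), 138 (replicate 9) and 90 (replicate 10). The share of calls that were higher thus lay between 71.2% and 92.0%. Other tests gave other numbers too. With 19 libraries DESeq2's Wald test called 1474 higher and 776 lower genes. The likelihood ratio test of edgeR called 1308 and 408, and limma voom 2432 and 2053. In the same order, these tests called 1295, 994 and 2080 lower genes with 17 libraries. With 17 libraries the 851 became 539, 487, 1287, 466, 511, 530, 853 and 1174 without PMN-MDSC replicates 1 to 8 in turn. Without 1 C PMN library they lay between 633 (replicate 6) and 895 (replicate 9). The genes called only with 17 libraries were 697 higher and 704 lower, so that lower genes made up a larger part of the gain than of the first set. The biological coefficient of variation, the typical spread of a gene between libraries beyond counting noise, was 0.816 with 19 libraries and 0.668 with 17. Inside the populations it was 0.874 in PMN-MDSCs (n = 9) and 0.770 in C PMNs (n = 10), and 0.702 (n = 8) and 0.636 (n = 9) without the low libraries.

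Among called genes, the estimated changes were larger for genes higher in PMN-MDSCs than for those that were lower. With 19 libraries the median log2 fold change was 2.59 for the 871 higher genes (quartiles 1.83 and 3.51), a 6.03-fold difference. For the 161 lower genes it was -1.47 (quartiles -1.80 and -1.23), a 2.78-fold difference. With 17 libraries the medians were 1.86 and -0.95. A log2 fold change of 4 or more was estimated for 147 higher and 2 lower genes with 19 libraries, and for 146 and 1 with 17. The large estimated differences were therefore nearly all increases, and the number of them was close in both fits. Both fits include PMN-MDSC replicates 3 and 8, near C PMNs, which limits how large a decrease can be estimated more than an increase. With 19 libraries, leaving out PMN-MDSC replicate 3 moved lower calls from 161 to 470 and higher calls from 871 to 1162. The low number of large decreases thus does not show that they were absent in the other PMN-MDSC libraries. Among the 851 lower genes of the second fit, 469 (55.1%) had a log2 fold change between 0 and -1, against 210 of the 1504 higher genes (14.0%) between 0 and 1. With 19 libraries these were 7 of the 161 lower genes (4.35%) and 14 of the 871 higher genes (1.61%). The estimates of called genes overstate effects on average, because a gene is called more easily when its estimate is large. This need not be equal in the 2 directions. The median standard error was 0.617 for higher and 0.417 for lower genes with 19 libraries, and 0.453 and 0.266 with 17. A gene with a larger standard error needs a larger estimate to be called.

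Size was also put to a test of its own. A difference above 1.5-fold was supported at the same false discovery rate for 543 genes with 19 libraries (5.28% of genes tested, 522 higher and 21 lower) and for 812 with 17 (7.78%, 754 higher and 58 lower), by edgeR's test against a minimum fold. The 21 lower genes became 134 without PMN-MDSC replicate 3, 68 without PMN-MDSC replicate 8 and 46 without C PMN replicate 7. They became 6 to 13 without PMN-MDSC replicate 1, 2, 4, 5, 6 or 7 or C PMN replicate 1, 2, 3, 6 or 10. Without PMN-MDSC replicate 9 or C PMN replicate 4, 5, 8 or 9 they were 16 to 27. They became 0 with scaling to library size alone, where edgeR's test called 656 genes, all higher, and 1708 genes had an unadjusted p under 0.05. The number of tested decreases is thus not firm. Above 2-fold the numbers were 321 (3.12%, 319 higher and 2 lower) and 404 (3.87%, all higher). Genes lower in PMN-MDSCs by a tested 2-fold were thus 2 in the first fit and 0 in the second, where 1180 genes of either direction had an unadjusted p under 0.05 in that test. Both fits include PMN-MDSC replicates 3 and 8, near C PMNs, which limits how large a decrease can be estimated. These 2 numbers thus do not show that 2-fold decreases were absent in the other libraries. Most genes were not called, and for most of these the data set no narrow bound. Among the 9246 genes not called with 19 libraries, the 95% interval of the fold change lay inside 2-fold in either direction for 1403 (15.2%). With 17 libraries it did so for 2938 of 8081 (36.4%), and this share was 0.965% of genes under 1 CPM, 62.9% from 10 to 100 CPM and 64.9% from 100 to 1000 CPM. CPM is the count of a gene over the library's total on genes, times 1e6.

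**Figure D1:**
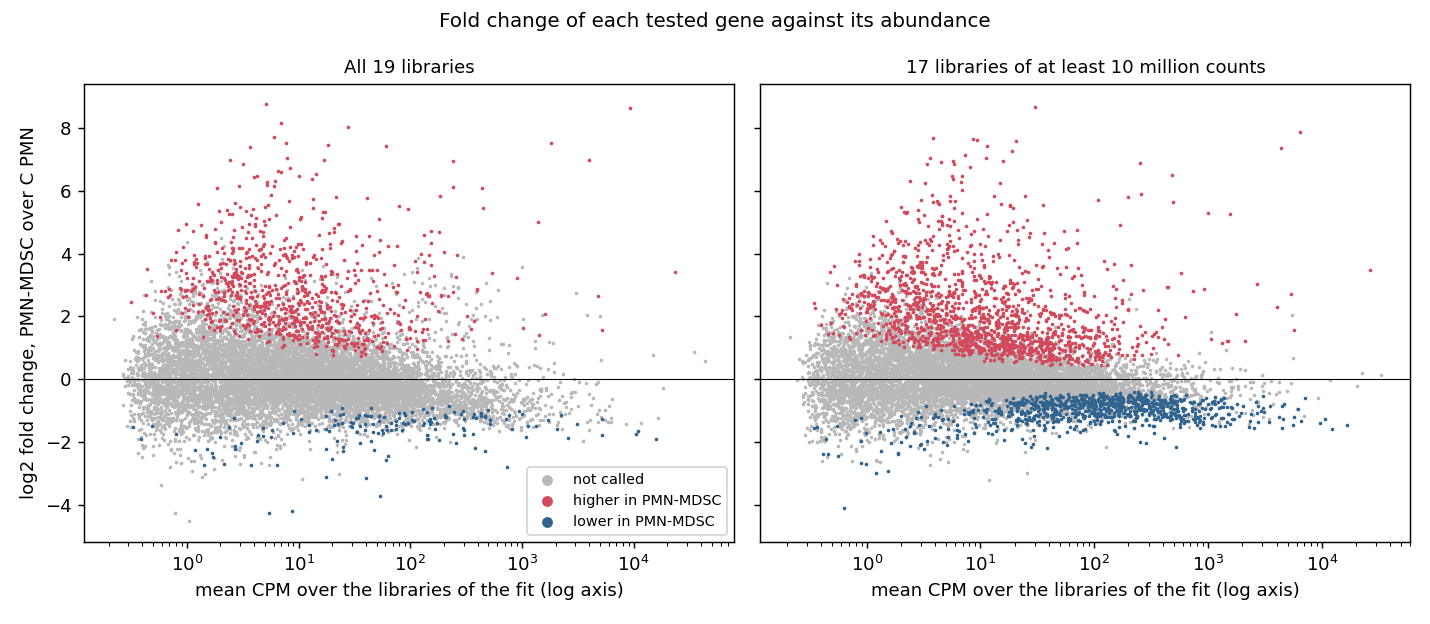
Log2 fold change of each gene tested (PMN-MDSC over C PMN, vertical axis) against its mean CPM over the libraries of the fit (horizontal log axis), with 19 libraries on the left and 17 on the right. Red points are the 871 and 1504 genes called higher and blue points the 161 and 851 called lower; the highest red points reach 8.75 and 8.68, while blue points lie mostly between 0 and -2.

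With 17 libraries and TMM scaling, which sets the zero from the bulk of genes, higher and lower genes lay in different ranges of abundance. There, 18.1% of the 3888 genes at a mean of 1 to 10 CPM were higher in PMN-MDSCs and 1.77% were lower. From 100 to 1000 CPM the shares were reversed, with 8.96% of 1206 genes higher and 31.3% lower. Of the 152 genes at 1000 CPM and over, 15 were higher (9.87%) and 68 were lower (44.7%). In that fit, genes from 100 CPM upward were thus called more often as lower, and those under 100 CPM as higher. In the class under 1 CPM, 57 of 1211 genes were higher (4.71%) and 14 lower (1.16%). From 10 to 100 CPM, 15.6% of 3979 genes were higher and 8.12% lower. With 19 libraries and TMM the excess of lower genes was not there from 100 to 1000 CPM, with 52 higher and 52 lower of 1143 genes (4.55% each), and at 1000 CPM and over 10 of 147 were higher (6.80%) and 13 lower (8.84%).

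Over all genes tested, called or not, the median log2 fold change went down with abundance from 1 CPM upward, while the class under 1 CPM lay below the next. With 17 libraries it was 0.06 under 1 CPM, 0.31 from 1 to 10 CPM, -0.06 from 10 to 100 CPM, -0.44 from 100 to 1000 CPM and -0.68 at 1000 CPM and over. With 19 libraries the same medians were 0.03, 0.30, -0.10, -0.47 and -0.72, so the low libraries moved the centre of each class little. They moved the calls more, as the counts above show. The median standard error in the class of 100 to 1000 CPM was 0.41 with 19 libraries and 0.24 with 17. Classes set by mean TPM, which divides by gene length and was chosen after the data had been seen, gave a like order. There, with 17 libraries, 17.1% of genes from 1 to 10 TPM were higher and 1.98% lower, against 10.3% and 37.5% at 1000 TPM and over.

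The zero of these fold changes was set by TMM scaling, and the number of lower genes depends on it. With scaling to library size alone, the median over all genes moved to 0.20 with 19 libraries and to 0.22 with 17. The calls were then 915 higher and 6 lower (99.3% higher), and 1987 higher and 278 lower (87.7% higher). From 1 CPM upward the medians of the classes fell under that scaling too, from 0.53 at 1 to 10 CPM to -0.44 at 1000 CPM and over with 17 libraries, and 43 of the 152 most abundant genes (28.3%) were still called lower, against 19 higher. From 100 to 1000 CPM the excess turned, with 161 higher and 121 lower genes. With 19 libraries it was 79 higher and 2 lower in that class, and 15 higher and 0 lower at 1000 CPM and over, where the median was -0.47. The excess of lower calls among abundant genes therefore depends on the scaling and on the libraries. With library size alone, edgeR gave 2158 genes of any class an unadjusted p under 0.05 with 19 libraries, while with DESeq2's size factors and 19 libraries it called 51 higher and 89 lower (7.79%) from 100 to 1000 CPM and 11 higher and 22 lower at 1000 CPM and over.

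**Figure D2:**
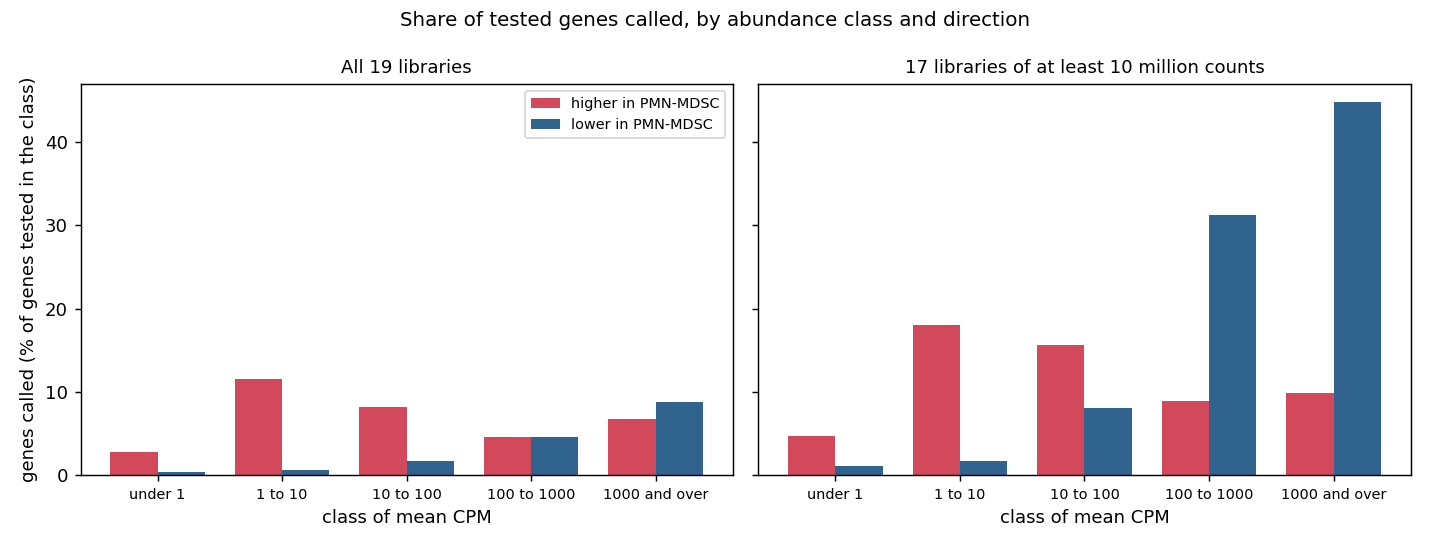
Share of the genes tested in each class of mean CPM that were called higher (red) or lower (blue) in PMN-MDSCs, with 19 libraries on the left and 17 on the right; bars start at 0. With 17 libraries the blue bars grow from 1.16% under 1 CPM to 44.7% at 1000 CPM and over, while the red bars are tallest, at 18.1%, from 1 to 10 CPM.

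The share of counts on called genes depended on the fit. In the fit of 17 libraries, the 851 lower genes held 41.8 ± 2.82% of the counts in C PMNs (SD, n = 9) and 23.6 ± 10.7% in PMN-MDSCs (SD, n = 8). The 1504 higher genes held 3.44 ± 0.789% in C PMNs (SD, n = 9) and 20.0 ± 10.2% in PMN-MDSCs (SD, n = 8). The spread over PMN-MDSC libraries was several times that over C PMN libraries, with 3.53% to 30.2% for higher genes (median 23.6%) against 2.19% to 4.94% (median 3.28%). With 19 libraries the 161 lower genes held 11.3 ± 2.41% in C PMNs (SD, n = 10) and 5.01 ± 3.73% in PMN-MDSCs (SD, n = 9), and the 871 higher genes 1.61 ± 0.604% and 14.4 ± 7.52%. The shares of lower genes were thus several times smaller in that fit, which called fewer of them. These genes were chosen on the same libraries, so the shares describe the size of the calls and are no further test.

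The makeup of the libraries as a whole was compared over 6 measures with two-sided exact permutation tests. With 19 libraries none of the measures passed the threshold (lowest exact p = 0.372, adjusted 0.812). With 17 libraries, at a depth of 21597183 counts for each, PMN-MDSC libraries held 10202 ± 408 genes with at least 10 counts (SD, n = 8) and C PMN libraries 9597 ± 482 (SD, n = 9; exact p = 0.0175, adjusted 0.0675). The 10 most abundant genes of each library held 22.4 ± 4.91% of its counts in PMN-MDSCs (SD, n = 8) and 17.1 ± 3.48% in C PMNs (SD, n = 9; exact p = 0.0225, adjusted 0.0675). Neither passed the threshold after adjustment over the 6 measures. Other definitions of these measures, outside the adjustment, gave both lower and higher p. Genes with at least 1 count went the other way, at 13034 ± 791 in PMN-MDSCs and 13680 ± 1165 in C PMNs (SD, n = 8 and 9; exact p = 0.208). Genes with at least 1 CPM were 9173 ± 342 and 8402 ± 394 (SD, n = 8 and 9; exact p = 0.00165), the most abundant gene held 5.71 ± 2.04% and 3.09 ± 1.15% (exact p = 0.00712), and the 100 most abundant held 48.3 ± 3.27% and 46.8 ± 4.28% (exact p = 0.419). With 1 low library left out and the other kept, the differences depended on which of them was kept. Without PMN-MDSC replicate 9 they were 1186 genes (exact p = 0.00096) and 0.652 percentage points (exact p = 0.975), and without C PMN replicate 7 they were 307 genes (exact p = 0.73) and 9.37 percentage points (exact p = 0.0119), all unadjusted. The effective number of genes, the number of equally abundant genes that would give the same entropy, was 863 ± 152 (SD, n = 8) and 919 ± 183 (SD, n = 9; exact p = 0.498). The 2 low libraries stood apart on these measures, with 58.7% and 63.9% of counts in 10 genes and an effective number of 67.3 and 54.4 for PMN-MDSC replicate 9 and C PMN replicate 7. Their TMM factors were 0.196 and 0.206, against 0.901 to 1.43 in the other libraries.

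The direction of the called genes was shared by most PMN-MDSC libraries. For each gene, the libraries whose log2 CPM lay on the called side of the C PMN median were counted. With 17 libraries, the higher genes had a median of 7 of 8 PMN-MDSC libraries on that side and the lower genes 8 of 8, against 6 of 8 over all genes tested. All 8 were on it for 689 of the 1504 higher genes (45.8%), 491 of the 851 lower genes (57.7%) and 1867 of the 10436 genes tested (17.9%). With 19 libraries all 9 were on it for 340 of 871 higher genes (39.0%) and 121 of 161 lower genes (75.2%), against 1239 of the 10278 tested (12.1%). No overlap between the populations was found for 44 higher and 14 lower genes with 17 libraries, where 22.6% of genes were called, and for 14 and 3 with 19, where 10.04% were. Over all genes tested it was found for 59 (0.565%) and 18 (0.175%). The counts of lower genes rest on the scaling. Without TMM, all libraries were on the called side for 217 of 851 lower genes (25.5%) with 17 libraries and for 54 of 161 (33.5%) with 19, and no overlap was found for 1 and 0 lower genes. For higher genes these counts were 865 (57.5%) and 300 (34.4%), and 61 and 19. Over all genes tested they were 1886 (18.1%) and 773 (7.52%), and 63 (0.604%) and 19 (0.185%). These libraries also made the calls, and all these counts are descriptions.

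The libraries that lay on the other side were mainly the same ones. With 17 libraries, 6 of the 8 PMN-MDSC libraries had 93.4% to 99.8% of the higher genes on the called side, while replicate 3 had 63.9% and replicate 8 had 73.3%. For lower genes the 6 had 94.9% to 100% and these 2 had 71.2% and 88.2%. Beyond the highest C PMN library, replicate 3 placed 11.97% and replicate 8 placed 24.6% of the higher genes, against 71.5% to 92.8% in the 6 others. Over all genes tested, taken in the direction of their estimate, replicates 3 and 8 had 57.5% and 61.4% on that side and 7.60% and 13.5% beyond all C PMNs, and the 6 others 72.0% to 86.0% and 35.6% to 46.2%. Over all 19 libraries the order was alike, with 94.0% to 100% of higher genes on the called side in the 6, 66.9% in replicate 3, 74.6% in replicate 8 and 77.2% in the low library, replicate 9. For lower genes they were 97.5% to 100%, 87.0%, 93.2% and 95.7%.

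A library can also be measured over genes that it did not help to choose. Each library was left out, the remaining ones were fitted, and the library's median log2 ratio to the mean of the other population was taken over the genes called without it. In 6 of the 8 PMN-MDSC libraries of sufficient depth, this ratio lay between 1.55 and 2.58 for higher genes and between -0.70 and -1.56 for lower genes. In replicate 3 it was 0.20 and -0.04 over 1807 and 1284 genes, and in replicate 8 it was 0.44 and -0.21 over 1750 and 1172 genes. The PMN-MDSC population thus held 2 deep libraries whose profile over these genes was close to the C PMN mean, although their labels and gates were those of the other 6. The shares of genes in the called direction were 60.5% and 55.1% in replicate 3 and 68.8% and 68.6% in replicate 8, with higher genes first. Without TMM scaling the ratios over lower genes turned positive in both, at 0.15 (33.6% in the called direction) and 0.11 (38.8%), and those over higher genes were 0.39 and 0.75. All 9 deep C PMN libraries had negative ratios over higher genes, from -1.98 to -1.03, and positive ones over lower genes, from 0.53 to 1.17. The libraries of the other population had a part in choosing the genes and also served as the reference, which the measure does not allow for.

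With all 19 libraries the ratios of replicates 3 and 8 were 0.26 and 0.51 for higher genes and 0.05 and -0.17 for lower genes. For the low library of PMN-MDSCs they were 0.93 and -1.73, with quartiles from -1.34 to 3.38 over the higher genes. Without TMM the ratio of this library over higher genes turned to -1.195 (36.0% in the called direction), and those of replicates 3 and 8 over lower genes were 0.46 and 0.40. The low library of C PMNs gave -0.48 for higher genes and -0.87 for lower genes, the latter on the side of PMN-MDSCs. Without TMM it gave -2.75 (83.1% in the called direction) and -2.96 (9.28%). Only this C PMN library went against its population over lower genes. The number of genes called rose from 1032 to 2039 without C PMN replicate 7 and to 1632 without PMN-MDSC replicate 3. It was 1457 without PMN-MDSC replicate 8 and 1303 without PMN-MDSC replicate 9.

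**Figure D3:**
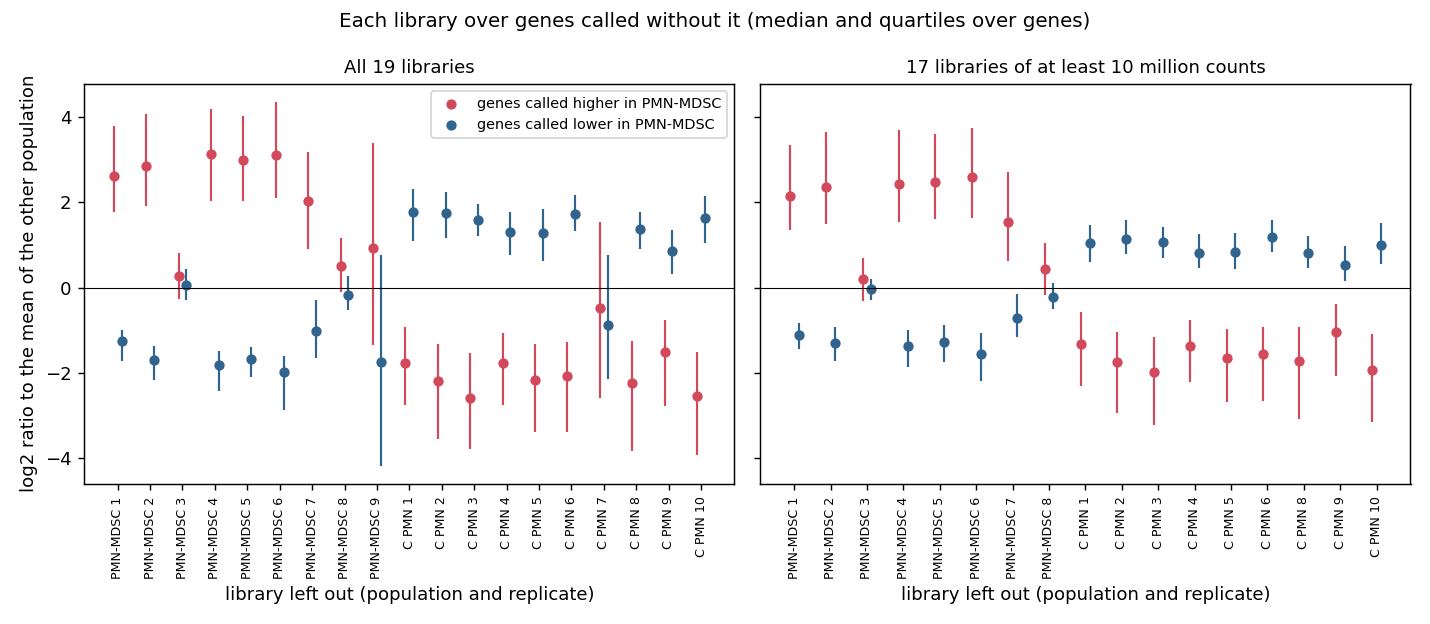
Each library's log2 ratio to the mean of the other population (vertical axis) over the genes called higher (red) or lower (blue) in PMN-MDSCs when that library was left out; points are medians and lines quartiles over genes, with 19 libraries on the left and 17 on the right. Among the deep PMN-MDSC libraries, replicates 3 and 8 lie near 0 (0.20 and 0.44 for higher genes with 17 libraries) and the other 6 between 1.55 and 2.58.

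Library names began with GAR4079 (5 PMN-MDSC and 6 C PMN libraries) or PAT4694 (4 and 4), and the meaning of the prefix is not given in the labels. Within GAR4079, 1954 of 10723 genes were called (18.2%), 1353 higher (12.6%) and 601 lower (5.60%). Over these genes the other prefix, which shares no library with the first, gave fold changes in the same direction. Of the 1353 higher genes, 1251 were tested in the 6 PAT4694 libraries of sufficient depth, and 1209 of them (96.6%) had a positive estimate, with a median of 1.44 against 1.95 in GAR4079. Of the 601 lower genes, 600 were tested and 579 (96.5%) had a negative estimate, with a median of -0.69 against -1.12. Over all 9922 genes tested in both, 49.2% had a positive estimate in PAT4694. With the low libraries included the shares were 94.2% and 96.0%. The direction was thus shared between the prefixes. PAT4694 alone called 0 of 9666 genes (0%), or 0 of 10214 (0%) without its low libraries. In those fits, by the same edgeR test, 598 and 714 genes had an unadjusted p under 0.05, and no other tool was applied to this prefix alone. They held 4 and 4 libraries, or 3 and 3 without the low ones, and PMN-MDSC replicate 8 was in both. With so few libraries, the absence of calls does not show a difference between prefixes. Whether the effect itself differed between prefixes was tested as an interaction, and 0 of 10278 genes (0%) passed with 19 libraries and 0 of 10436 (0%) with 17, in edgeR's quasi-likelihood test. Unadjusted, 254 and 187 genes were under 0.05, and with 19 libraries edgeR's likelihood ratio test and limma voom also called 0, with 378 and 272 genes under 0.05.

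The levels of the called genes in the other 4 populations, which took no part in the fits, were described without a test, an addition made after the data had been seen. The median log2 CPM over the 1504 higher genes was 1.998 ± 0.33 in C PMNs (SD, n = 10) and 2.08 ± 0.11 in neutrophils of healthy dogs (H PMNs; SD, n = 5). It was 3.71 ± 0.83 in PMN-MDSCs (SD, n = 9), 3.92 ± 0.13 in monocytic MDSCs (M-MDSCs; SD, n = 5) and 4.12 ± 0.06 in monocytes of tumor-bearing dogs (C Mono; SD, n = 8). In monocytes of healthy dogs (H Mono) it was 4.17 ± 0.08 (SD, n = 3). The distance between PMN-MDSCs and C PMNs is set by the choice of these genes. PMN-MDSC replicates 3 and 8, at 2.25 and 2.62, lay nearer to the level of C PMNs. Over the 851 lower genes the medians were 7.10 ± 0.59 in C PMNs (SD, n = 10), 7.24 ± 0.12 in H PMNs (SD, n = 5), 6.02 ± 0.91 in PMN-MDSCs (SD, n = 9) and 5.14 ± 0.08 in C Mono (SD, n = 8). In M-MDSCs the median was 5.49 ± 0.12 (SD, n = 5) and in H Mono 5.19 ± 0.08 (SD, n = 3). The PMN-MDSC libraries spread over 2.25 to 4.46 for higher genes and 3.94 to 7.15 for lower genes, wider than any other population. The called genes of the 19 libraries gave a like picture, with 1.44 ± 0.40 in C PMNs (SD, n = 10), 3.64 ± 0.997 in PMN-MDSCs (SD, n = 9) and 3.77 ± 0.07 in C Mono (SD, n = 8) over the 871 higher genes. Over the 161 lower genes these levels were 6.79 ± 0.31, 5.10 ± 0.90 and 4.54 ± 0.12.

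Monocytes share the layer from which PMN-MDSCs were sorted, and the CD14 gate is meant to remove them, so the level of lineage-restricted genes was measured in each library. From the healthy dogs, 50 genes were taken for each lineage with the highest mean CPM among those that were at least 50 CPM in it, at least 50-fold lower in the other and without overlap between them. The 50 monocyte genes together held 0.0596% to 1.23% of the counts in PMN-MDSC libraries (median 0.764%), 0.0270% to 0.351% in C PMN libraries (median 0.0911%) and 11.7 ± 1.18% in C Mono (SD, n = 8). Replicates 3 and 8 of PMN-MDSCs were the lowest of that population, at 0.0596% and 0.238%, and PMN-MDSC replicate 9 was next at 0.380%. The most abundant of the 50 held 0.0102% to 0.539% of the counts in PMN-MDSC libraries, and at most 1 of the 50 was at 0 counts in any of the 19 libraries. Of the 50 monocyte genes, 9 were called higher with 19 libraries and 22 with 17, beside 8.47% and 14.4% of all genes, and 0 were lower. Their median log2 fold changes were 1.1999 and 1.86, against -0.02 and 0.01 over all genes tested. The 50 neutrophil genes held 6.85% to 40.3% of the counts in PMN-MDSCs (median 12.1%) and 4.86% to 27.9% in C PMNs (median 7.47%), with both maxima in the low libraries. With 19 libraries 1 of them was higher and 3 were lower, beside 1.57% of all genes, with a median of -1.13. With 17 libraries 1 was higher and 19 were lower, beside 8.15% of all genes, with a median of -1.01, although the median of their summed share was higher in PMN-MDSCs. The part of carried-over cells in the calls was not tested.

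Fold changes were compared over 5 equal classes of relative gene length, taken from the ratio of counts to TPM, because a trend with length accompanies differences in RNA quality. With 17 libraries the median log2 fold change was between -0.04 and 0.04 in the 5 classes. The share of genes called higher was 12.7% in the longest class and 13.8% to 15.4% in the others. Lower genes were 5.60% of the shortest class and 8.19% to 9.20% of the other 4. Over all 19 libraries the shortest class had a median of 0.13 and the others -0.07 to 0.01, and lower genes were 1.80% of the shortest class and 1.02% to 1.80% of the others.

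By a fixed rule, 2 IDs of each direction were taken among the 954 genes called in both fits, namely the one with the highest mean CPM and the one with the smallest false discovery rate with 17 libraries. ENSCAFG00000013763 was the most abundant of the higher genes. It lay between 1360 and 75136 CPM in PMN-MDSCs (median 59489) and between 269 and 10845 CPM in C PMNs (median 2997). The 6 PMN-MDSC libraries above all C PMNs held at least 56253 CPM, over 5% of their counts, while replicates 3, 8 and 9 held 2948, 5257 and 1360 CPM, inside the range of C PMNs. On average PMN-MDSCs held 46055 ± 32758 CPM (SD, n = 9), against 3388 ± 2886 CPM in C PMNs (SD, n = 10). With 19 libraries edgeR put the log2 fold change at 3.42 (standard error 0.65, adjusted p = 0.00217) and with 17 at 3.48 (standard error 0.62, adjusted p = 0.00114). In the remaining populations the mean was 3705 CPM in M-MDSCs, 2190 in H PMNs, 437 in C Mono and 631 in H Mono, each below that of PMN-MDSCs.

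ENSCAFG00000008324 had the smallest false discovery rate of the higher genes. It was at 17.5 to 2002 CPM in PMN-MDSCs (median 1041) and 3.71 to 13.8 CPM in C PMNs (median 10.5), and all 9 PMN-MDSC libraries lay above all 10 C PMN libraries. The same 3 libraries were lowest here too, with 17.5, 79.8 and 46.0 CPM in replicates 3, 8 and 9, while the lowest of the other 6 held 862 CPM. By edgeR it rose by a log2 fold change of 6.10 with 19 libraries (standard error 0.70, adjusted p = 8.23e-05) and of 6.49 with 17 (standard error 0.70, adjusted p = 0.000141). H PMNs, M-MDSCs, C Mono and H Mono had means of 6.38, 2.82, 2.92 and 1.60 CPM.

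Among the lower genes, ENSCAFG00000017646 was the most abundant, at 1196 to 24816 CPM in PMN-MDSCs (median 5079) and 16977 to 40588 CPM in C PMNs (median 20433). PMN-MDSC replicates 3 and 8 held 24816 and 20276 CPM, inside the range of C PMNs, and the other 7 lay below it. With 19 libraries edgeR estimated -1.89 on the log2 scale (standard error 0.51, adjusted p = 0.0206), and with 17 it estimated -1.47 (standard error 0.39, adjusted p = 0.0138). The lower gene with the smallest false discovery rate, ENSCAFG00000031079, was at 0.476 to 30.3 CPM in PMN-MDSCs (median 20.2) and 8.27 to 81.1 CPM in C PMNs (median 45.0). The populations overlapped, since 8 of the 9 PMN-MDSC libraries lay above the lowest C PMN library, which was the low one. Without the low libraries the lowest C PMN held 23.9 CPM, and 3 of 8 PMN-MDSC libraries lay above it, at 25.5, 28.7 and 30.3 CPM. Its mean was 90.6 CPM in M-MDSCs, 56.8 in C Mono, 71.6 in H Mono and 59.1 in H PMNs, all above the 47.0 of C PMNs, whereas ENSCAFG00000017646 had means of 6892 CPM in M-MDSCs, 3557 in C Mono, 3227 in H Mono and 23043 in H PMNs. Here edgeR gave -1.68 with 19 libraries (standard error 0.32, adjusted p = 0.00225) and -1.54 with 17 (standard error 0.24, adjusted p = 0.000562). With scaling to library size alone, and all 19 libraries, both lower genes lost their call (-1.32 and -1.36, adjusted p = 0.0738 and 0.0905 from edgeR). With 17 libraries and that scaling both were called (-1.21 and -1.32, adjusted p = 0.0254 and 0.00181 from edgeR). With 1 library left out and TMM scaling their adjusted p from edgeR lay between 0.00498 and 0.0429 and between 0.000826 and 0.00633. None of the 4 genes was called within PAT4694 alone (adjusted p of at least 0.297 with all of its libraries and 0.284 without the low ones, from edgeR). The log2 fold changes there, in the order of this account, were 3.82, 5.51, -2.25 and -1.69, and 3.96, 6.33, -1.07 and -1.39 without the low libraries, so that signs were kept and sizes were mostly near those of all libraries. The 4 genes were chosen in fits that held these PAT4694 libraries, so the kept signs and sizes are a description and no separate test.

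**Figure D4:**
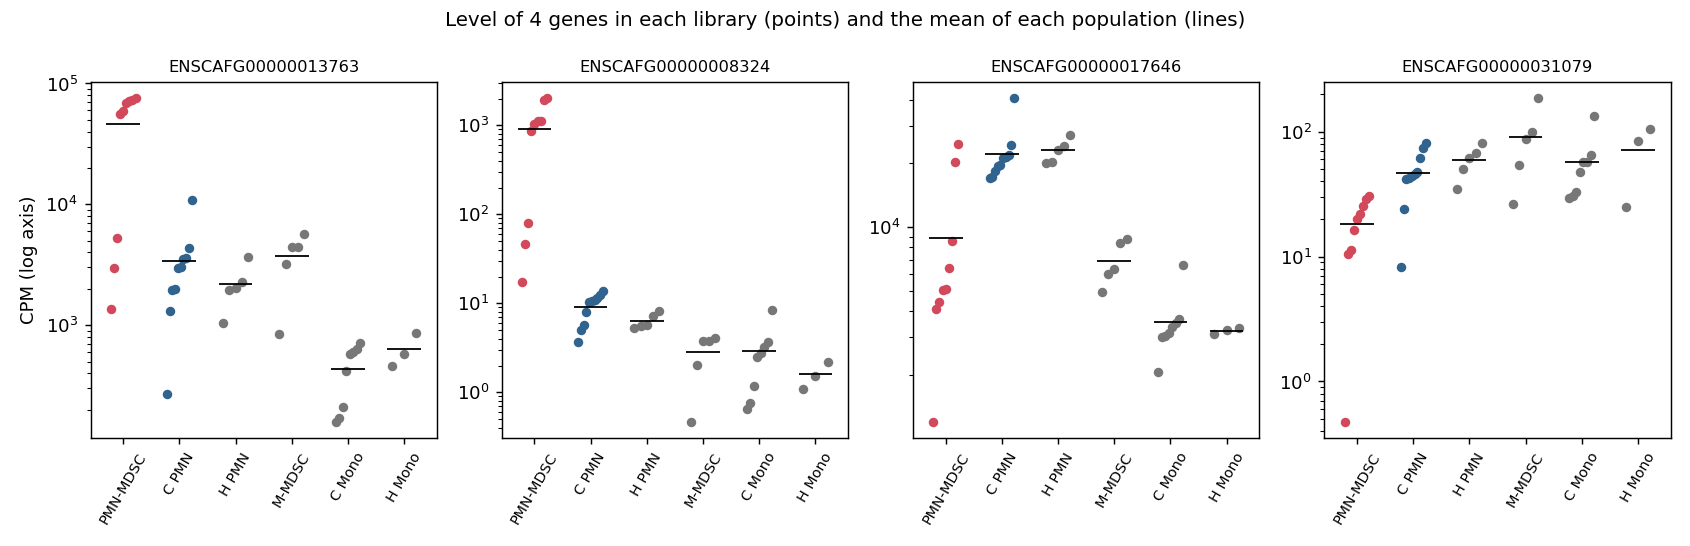
CPM of 4 genes (log axis) in each library of the 6 populations, with PMN-MDSCs in red, C PMNs in blue and the other populations in grey; black lines are the means of the populations. For ENSCAFG00000013763, 6 PMN-MDSC libraries lie at 56253 CPM or more and 3 lie within the range of C PMNs.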

How the data were processed

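The members and lists were chosen with earlier results of these data known. The authors sorted the cells, aligned the reads with HISAT2 to CanFam3.1 with spike-in sequences, marked duplicates with Picard 1.92 and made the deposited counts, without normalization, with featureCounts (Subread 1.5.0) from reads unique to exons, so that near-identical genes are undercounted. Whether duplicates were removed is not stated. The authors also deposited TPM, whose gene lengths are not stated.

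Here counts of 24580 genes were fitted with edgeR 4.0.16 (quasi-likelihood, TMM, default expression filter, Benjamini-Hochberg adjustment) in R 4.3.3, limma 3.58.1 and DESeq2 1.42.0 being used in alternatives. The 92 spike-ins, at most 0.000168% of counts, were left out. Standard errors were derived from the F statistic. Permutation tests enumerated all 92378 or 24310 divisions. Log2 CPM used TMM and a prior count of 2. Python 3.11.15, numpy 2.4.6, pandas 2.3.3 and scipy 1.17.1 were used. Fits were tested on simulated data, and the outcome of that is not given here. Pairs of libraries of a population had a chi-square per degree of freedom of at least 143, which describes the spread between separate samples beside counting noise and is no test of quality.

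Named genes were 2 IDs of each direction, with the highest mean CPM and the smallest false discovery rate, among genes called in both fits. CPM scaled by TMM was tried for the first of these while the analysis was being written, and it would have named another higher ID, with the one reported second. Unscaled CPM was kept because the rule states CPM. By TPM, each of the 2 IDs named for abundance was second in its direction. Marker and pathway lists fixed by symbol could not be used without symbols. The lineage lists, the levels in other populations and the TPM classes were added after the data had been seen.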

Additional observations from a re-analysis of the deposited data

Results flagged for a closer look

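In 28 groups of 9 or 10 libraries, a value was singled out when its gap to the nearest library was large against the range of the group by Dixon's 95% limit, which chance passes in about 1 of 20 groups. Most of the values belong to the libraries of low depth. PMN-MDSC replicate 9 had 6.80 log10 counts (next 7.34), 3959 genes with at least 10 counts (next 9582), 3427 such genes at the lowest depth (next 7460), 58.7% of counts in 10 genes (next 28.9%), an effective number of 67.3 genes (next 638), a log2(CPM + 1) of 0.56 for ENSCAFG00000031079 (next 3.52) and a log10 percentage of counts on the neutrophil list of 1.61 (next 1.202). C PMN replicate 7 had 6.63 log10 counts (next 7.33), 3470 genes with at least 10 counts (next 9480), 3470 at the lowest depth (next 6678), 63.9% of counts in 10 genes (next 22.7%) and an effective number of 54.4 genes (next 645). Its left-out log2 ratios with TMM were -0.48 over higher genes (next -1.50) and -0.87 over lower genes (next 0.87). Without TMM they were -2.75 and -2.96, the former close to the -2.66 of C PMN replicate 10. Apart from these, C PMN replicate 5 was high for ENSCAFG00000017646, with a log2(CPM + 1) of 15.31 (next 14.57).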

How the results depend on the processing

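No paired analysis was possible because the labels give no dog or replicate number that the populations share, although the study's text compares them within a patient. With 19 libraries the 1032 calls became 361 at a false discovery rate of 0.01, 272 with at least 10 counts in every library (2415 genes tested), 1716 with the likelihood ratio test, 2250 with DESeq2, 4485 with limma voom (54.2% higher), 3426 with all populations in 1 fit, 1954 in GAR4079 alone, 0 in PAT4694 alone and 2355 without the low libraries. With 17 libraries the 2355 calls became 876 at 0.01, 4595 with limma voom, 4176 with all populations in 1 fit and 0 in PAT4694 alone. Leaving out 1 library gave 715 to 2039 calls, and 1668 to 3146 with 17. The 543 genes above 1.5-fold became 321 above 2-fold, and 404 to 1010 with 1 library left out, the highest without C PMN replicate 7 and 871 without PMN-MDSC replicate 3. Beyond fewer genes or libraries, the causes were not tested. Over the named genes' fold changes and the medians of called genes, 286 alternatives kept direction and side of the threshold, 10 lost a call and 3 counts of libraries moved; the medians are of genes already called in 1 direction.

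For library makeup, the difference (PMN-MDSC minus C PMN) in genes at the lowest depth was 604 without the low libraries (exact p = 0.0175) and 307 to 1186 with 1 left out; for 10-gene shares it was 5.33 (exact p = 0.0225) and 0.652 to 9.37 percentage points. Signs changed where no difference had been called: -606 genes at a minimum of 1 count, and with 1 library left out -288 to 1137 genes with at least 10 counts, -0.0775 to 0.0912 log10 counts and an effective number of -145 to 30.3.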
